A study of Mus musculus with 6 samples.

Results

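The 6 genes described here encode the creatine kinases (Ckb, Ckm, Ckmt1 and Ckmt2) and the enzymes of creatine synthesis (Gatm and Gamt), and they were matched by symbol among the 54418 gene identifiers of the count table. They were named with the difference between Control and GATA6KO already known, so their values in that contrast are given as a description, without a test. RNA came from mouse organoids, self-organising epithelial cultures, that the labels call AKP in both groups without listing the alleles. There were 3 libraries with the genotype Control and 3 with the genotype GATA6KO, a knockout of the endodermal transcription factor GATA6. The labels give no sex, age, passage, agent or position of the lesion, and they do not say whether replicates were clones or separate cultures, so a p-value covers the variation of these libraries alone, and that may be technical. The series asks how loss of GATA6 bears on lineage plasticity and metastasis of colorectal cancer.

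Creatine is made in a pair of steps. GATM, a mitochondrial amidinotransferase, joins arginine and glycine into guanidinoacetate and releases ornithine, and GAMT methylates guanidinoacetate to creatine with S-adenosylmethionine as the donor. Cells can also take creatine up through the sodium-dependent transporter SLC6A8. Creatine kinases then move a phosphate between ATP and creatine, which gives cells a quickly drawn store of high-energy phosphate. CKB (brain type) and CKM (muscle type) are cytosolic, whereas CKMT1 (ubiquitous) and CKMT2 (sarcomeric) sit between the mitochondrial membranes. In colorectal cancer, CKB released from cells has been reported to make phosphocreatine that metastatic cells in the liver import through SLC6A8.

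The bases upstream of the start sites of Ckb and Gatm are shown because these transcripts were lower in the GATA6KO group with very different evenness between libraries. Both are from RefSeq on GRCm38.p6 (the assembly of mm10), written 5′ to 3′ on the gene's strand and ending before the first start site that RefSeq or GENCODE M21 gives in the window. Ckb is taken from chr12:111672339-111672588 and Gatm from chr2:122611304-122611527, both on the minus strand. Capitals mark matches to the short motifs described under them, on either strand.
Ckb: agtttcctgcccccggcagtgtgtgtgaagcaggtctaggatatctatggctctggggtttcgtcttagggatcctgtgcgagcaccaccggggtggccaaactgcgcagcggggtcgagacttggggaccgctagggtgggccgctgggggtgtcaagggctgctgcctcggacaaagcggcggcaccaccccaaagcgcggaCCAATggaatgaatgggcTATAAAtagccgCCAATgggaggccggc
Gatm: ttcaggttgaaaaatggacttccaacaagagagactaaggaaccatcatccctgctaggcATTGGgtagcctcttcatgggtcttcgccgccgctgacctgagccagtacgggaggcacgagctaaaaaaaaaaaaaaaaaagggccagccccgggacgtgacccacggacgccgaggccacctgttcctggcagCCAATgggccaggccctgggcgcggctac
The Ckb sequence holds TATAAA at 28 to 23 bases before the start and CCAAT at 46 to 42 and at 16 to 12 bases before it, and none of these overlap. The Gatm sequence holds CCAAT once on each strand, at 190 to 186 (reverse) and at 55 to 51 bases before the RefSeq start, and no TATAAA. Among all 32851 RefSeq promoter windows of 250 bases upstream, 12.4% hold TATAAA and 33.8% hold CCAAT on either strand. GATA sites (GATA with A or T before it and A or G after it, on either strand), which 26.5% of the windows hold, were not matched in the 250 bases upstream of Ckb or Gatm, nor was the GC box GGGCGG, which 32.7% hold. All 6 genes matched a RefSeq promoter, and Ckmt1 matched 2 of them.

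The libraries held 22973245 to 31328415 estimated counts. Gata6 itself measured 25.3, 23.2 and 28.0 CPM (counts per 1000000 counts of a library, scaled by TMM) in Control replicates 1 to 3. It measured 14.3, 16.0 and 8.24 CPM in GATA6KO replicates 1 to 3, so every GATA6KO library kept part of the transcript and replicate 3 kept least. The log2 fold change of Gata6 was -0.99 (SE 0.25, edgeR adjusted p = 0.0486), just under the threshold of 0.05. All 10 epithelial markers passed the filter on low counts, and their summed level was 10579 to 11499 CPM in Control and 6954 to 8321 CPM in GATA6KO. Most of that sum was Krt8 (means of 3272 and 2242 CPM in Control and GATA6KO) and Krt19 (3393 and 2608 CPM). The difference by gene ran from Vil1, at 453 and 417 CPM, to Krt20, at 3.64 and 1.43 CPM. In bulk RNA, fewer cells of a type and less RNA per cell cannot be told apart.

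Ckb, the cytosolic brain-type kinase, was lower in all 3 GATA6KO libraries and nearly level among them. Its gene (ENSMUSG00000001270) lies on chromosome 12, 111669361 to 111672338, on the minus strand of mm10. Control replicates 1 to 3 gave 618, 734 and 762 counts, against 144, 154 and 133 in the GATA6KO replicates in the same order. Scaled, these were 27.1, 25.4 and 25.4 CPM in Control and 4.81, 5.05 and 4.44 CPM in GATA6KO. The groups lie far apart, and neither group has a library that stands out.

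The mean level of Ckb was 26.0 ± 0.953 CPM in Control and 4.77 ± 0.309 CPM in GATA6KO (SD, n = 3 each). The fitted difference was a log2 fold change of -2.44 (SE 0.13), a level 5.45-fold lower. Relative to the Control mean, Ckb stood at 0.185, 0.194 and 0.171 in GATA6KO replicates 1 to 3, beside 0.560, 0.629 and 0.323 for Gata6. GATA6KO replicate 3 was lowest for both genes, but Ckb varied over a far narrower range. Its counts of 144, 154 and 133 are too close for their order to be read, and a relation to Gata6 was not tested. Of the 14714 genes tested, 146 had a lower log2 fold change than Ckb. The SD of Ckb within GATA6KO was 0.09 on the log2 scale, whereas the median SD of all genes tested was 0.28 there, and 9.85% of genes had a smaller one. Both processed pseudogenes of Ckb, Ckb-ps1 and Ckb-ps2, were at 0 counts in every library.

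**Figure D1:**
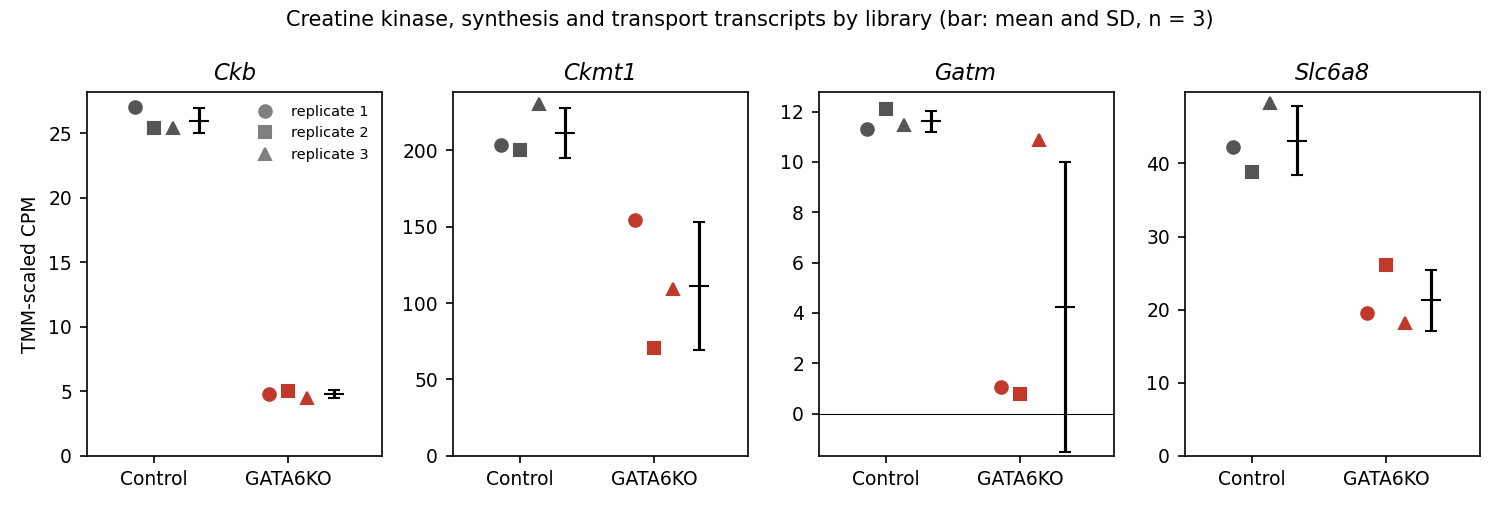
TMM-scaled CPM of Ckb, Ckmt1, Gatm and the creatine transporter Slc6a8 on a linear axis, with 1 point per library (symbols give the replicate number) and the mean with SD over 3 libraries beside them. Ckb sits at 4.44 to 5.05 CPM in all GATA6KO libraries, whereas Gatm is at 1.04 and 0.787 CPM in replicates 1 and 2 and at 10.9 CPM in replicate 3.

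Ckmt1, the ubiquitous mitochondrial kinase, was the most abundant creatine kinase and was lower in GATA6KO by unequal amounts. The gene (ENSMUSG00000000308) lies on chromosome 2, 121357714 to 121363737, on the plus strand. It measured 203, 200 and 230 CPM in Control replicates 1 to 3 and 154, 70.3 and 109 CPM in GATA6KO replicates 1 to 3. The groups do not overlap, and replicate 2 is the lowest of the GATA6KO libraries, at 0.333 of the Control mean against 0.730 in replicate 1. The means were 211 ± 16.5 and 111 ± 42.0 CPM (SD, n = 3 each), with a log2 fold change of -0.93 (SE 0.26). The gene Strc overlaps Ckmt1 on the other strand and had at most 2 counts in a library.

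Ckm and Ckmt2, the muscle kinases, were at or near 0. Ckm had 1 count in Control replicate 1, 1 in Control replicate 2 and 0 in the other libraries. Ckmt2 had 0 counts in all 6 libraries. A count of 0 allows up to 3 counts, which was 0.0984 to 0.131 CPM across the libraries, for counting error only. Neither was tested.

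Per length, Ckmt1 stood above Ckb in both groups. Divided by the bases covered by a gene's exons in GENCODE M21, Ckmt1 had a level of 84.7 ± 6.59 CPM per kb in Control and 44.5 ± 16.8 CPM per kb in GATA6KO (SD, n = 3 each). Ckb had a level of 8.97 ± 0.329 and 1.65 ± 0.107 CPM per kb. These lengths pool the exons of all annotated transcripts and come to 2895 bases for Ckb, nearly its whole gene. A pooled length can exceed that of a single transcript, so levels per kb and shares may be understated for such a gene. The summed level of the 4 kinases was 90.9, 89.0 and 101 CPM per kb in Control and 63.4, 29.9 and 45.2 CPM per kb in GATA6KO replicates 1 to 3. Ckb held 10.3%, 9.87% and 8.69% of that sum in Control and 2.62%, 5.83% and 3.39% in GATA6KO. The share of Ckb was therefore lower in every GATA6KO library, and it was highest among them in replicate 2, where Ckmt1 was lowest.

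Gatm, the first enzyme of creatine synthesis, differed between the GATA6KO libraries more than between the groups. Its gene (ENSMUSG00000027199) lies on chromosome 2, 122594467 to 122611303, on the minus strand. Its counts were 258, 349 and 344 in Control and 31, 24 and 326 in GATA6KO, in the order of the replicate numbers. The levels were 11.3, 12.1 and 11.5 CPM in Control against 1.04, 0.787 and 10.9 CPM in GATA6KO. Replicates 1 and 2 stood at 0.0892 and 0.0677 of the Control mean, while replicate 3 stood at 0.935 and lies just under the lowest Control library.

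The group means of Gatm were 11.6 ± 0.418 and 4.23 ± 5.75 CPM (SD, n = 3 each). The log2 fold change over all libraries was -1.46 (SE 0.94), and it was -3.67 without GATA6KO replicate 3. The SD of Gatm within GATA6KO was 2.02 on the log2 scale, and 98.6% of the genes tested had a smaller one. Replicate 3, where Gatm is near its Control level, is the library with the least Gata6 transcript. A relation of Gatm to Gata6 was not tested. Gamt, the methyltransferase of the second step, had 5 to 10 counts in every library (9, 5 and 9 in Control and 10, 9 and 7 in GATA6KO), which is 0.173 to 0.394 CPM, and the groups overlap. It did not pass the filter on low counts.

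In all, 3 of the 6 members passed the filter on low counts. Of these 3, only Ckb was among the genes with an edgeR adjusted p under 0.05, beside 12.4% of all 14714 genes tested (5.47% lower and 6.92% higher). All 3 had every GATA6KO library below every Control library, as did 20.5% of all genes tested (in 20.3% every GATA6KO library lay above). Since the members were chosen on this contrast and 3 did not pass the filter, nothing is read from these counts. On the plot of fold change against level, all 3 lie below 0.

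**Figure D2:**
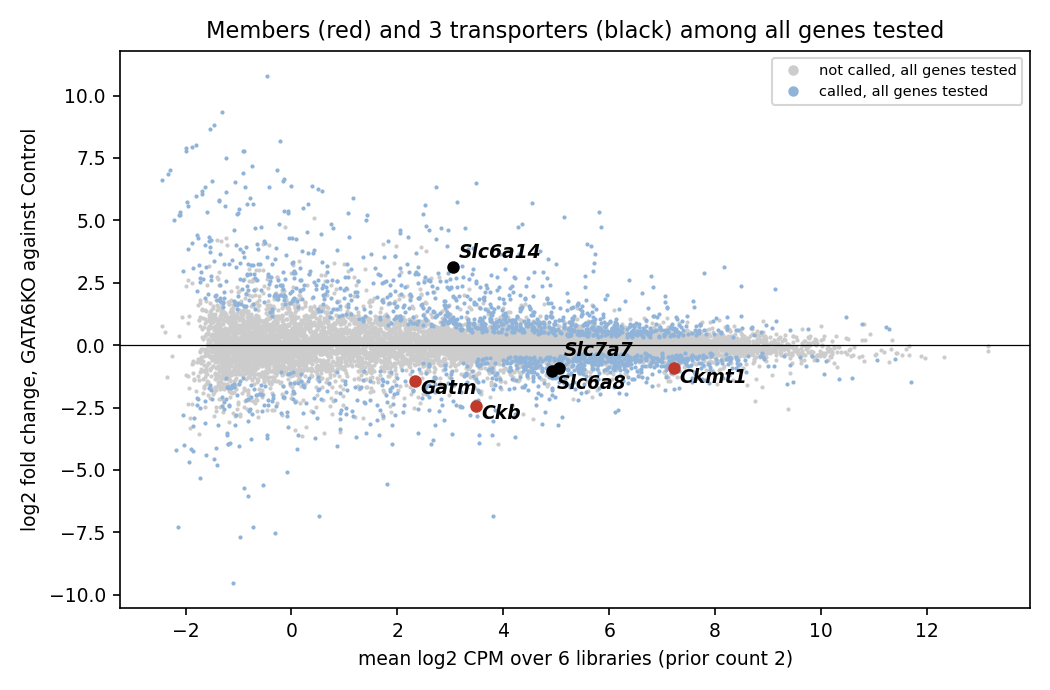
Log2 fold change (GATA6KO against Control) against mean log2 CPM over 6 libraries for the genes tested that have a symbol; blue points passed the edgeR test at an adjusted p of 0.05 and grey points did not. Ckb, Ckmt1 and Gatm (red) lie at -2.44, -0.93 and -1.46, and 3 transporters (black) are marked, of which Slc6a14 lies above 0 and Slc6a8 and Slc7a7 below it.

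Slc6a8, the creatine importer and no member of the chosen set, fell in GATA6KO. It lies on chromosome X, 73673150 to 73682502. It measured 42.3, 38.9 and 48.2 CPM in Control replicates 1 to 3 and 19.5, 26.0 and 18.2 CPM in GATA6KO replicates 1 to 3. All GATA6KO libraries lie below all Control libraries, and replicate 2 is the highest of them. The means were 43.1 ± 4.72 and 21.2 ± 4.20 CPM (SD, n = 3 each), with a log2 fold change of -1.02 (SE 0.17, edgeR adjusted p = 0.0136). The call was lost without Control replicates 1, 2 and 3 (edgeR adjusted p = 0.0689, 0.0542 and 0.0822), a step that lowers the count of all called genes from 1823 to 425, 389 and 332. Per length, Slc6a8 had a level of 8.28 CPM per kb in Control, beside 8.97 CPM per kb for Ckb. Of the other genes in the transport list, the carnitine transporter Slc22a5 measured a log2 fold change of 0.01 (edgeR adjusted p = 0.965), and Slc16a12 and Slc16a9 did not pass the filter on low counts.

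Genes that make, use or carry arginine, glycine and ornithine, the substrates and a product of GATM, moved in both directions. Of 15 tested, 1 rose and 3 fell by the edgeR test (26.7%, beside 12.4% of all genes tested), and the median log2 fold change was -0.16 against 0.02 over all genes. Slc6a14, a broad importer of neutral and cationic amino acids, went up from 2.87 ± 0.583 CPM to 24.8 ± 9.26 CPM (SD over 3 libraries each), a log2 fold change of 3.11 (SE 0.31, edgeR adjusted p = 0.00314). Slc7a7, the light chain of a cationic amino acid exchanger, went down from 45.5 ± 1.02 CPM to 23.8 ± 1.71 CPM, a log2 fold change of -0.94 (SE 0.10, edgeR adjusted p = 0.00327). Slc7a7 lies on chromosome 14, where the median gene (at least 5 CPM in Control) differed from its Control mean by a log2 ratio of -0.90 in GATA6KO replicate 2, and by -0.09 and 0.04 in replicates 1 and 3. Slc7a7 measured 25.7, 22.5 and 23.2 CPM in GATA6KO replicates 1 to 3, so it was as low in replicate 3 as in replicate 2.

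The mitochondrial enzyme Shmt2, which makes glycine from serine, fell from 297 to 156 CPM (log2 fold change -0.93, edgeR adjusted p = 0.026). The arginine importer Slc7a1 fell from 218 to 148 CPM (log2 fold change -0.56, edgeR adjusted p = 0.0464). Slc6a14 and Slc7a7 were called without each library in turn. Shmt2 lost its call when Control replicate 1, 2 or 3 was left out, at edgeR adjusted p-values of 0.0976, 0.0884 and 0.11. Slc7a1 was not called without Control replicate 1, 2 or 3 (0.162, 0.14 and 0.127), without GATA6KO replicate 2 or 3 (0.0762 and 0.0946) or with scaling to the library total alone (0.0584).

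The methyl donor cycle, which feeds the GAMT step, had 0 of 13 tested genes called by edgeR, beside 12.4% of all genes tested. Of the 13, 5 had an unadjusted p under 0.05. No share over all genes is given for that threshold, so nothing is read from that count. DESeq2, which called more genes than edgeR over the whole table, called 2 higher and 2 lower, and limma-voom 0. Its most abundant genes over all 6 libraries were Ahcy, which clears the S-adenosylhomocysteine left by methylation, at 319 and 419 CPM in Control and GATA6KO (edgeR adjusted p = 0.0599), and Mat2a, which makes S-adenosylmethionine, at 256 and 437 CPM (edgeR adjusted p = 0.0889). Mat2a in GATA6KO overlapped the Control range through replicate 1, and without that library it was called (log2 fold change 1.02, edgeR adjusted p = 0.00437). That omission gave the most calls over all genes. Ahcy was called without GATA6KO replicate 1 or 3 (0.0401 and 0.0412) and with scaling to the library total alone (0.0417).

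The lists for other routes of high-energy phosphate held no gene called by edgeR over all libraries. Of 16 tested adenylate and nucleoside phosphate kinases, 0 were called by edgeR, beside 12.4% of all genes tested, and 5 had an unadjusted p under 0.05. DESeq2, which called more genes than edgeR over the whole table, called 2 higher and 1 lower, and limma-voom 0. The mean level of the mitochondrial adenylate kinase Ak4 was 246 CPM in Control against 133 CPM in GATA6KO (log2 fold change -0.89, edgeR adjusted p = 0.184). GATA6KO replicate 1, at 228 CPM, lay just under the Control libraries, against 100 and 70.6 CPM in replicates 2 and 3. Without replicate 1, the omission with the most calls over all genes, Ak4 was called (log2 fold change -1.52, edgeR adjusted p = 0.00502). Of 6 tested porins and carriers that pass ATP, ADP and phosphate across the mitochondrial membranes, 0 were called by edgeR, with 2 at an unadjusted p under 0.05. DESeq2 called 0 higher and 2 lower of them, and limma-voom 0. The share of 12.4% is for the edgeR adjusted p and not for the other thresholds or tools. Nothing is read from counts in lists this small. Slc25a5, the most abundant ADP/ATP carrier here, measured 877 and 888 CPM (edgeR adjusted p = 0.936), and the phosphate carrier Slc25a3 462 and 504 CPM (edgeR adjusted p = 0.601).

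The list of AMP-activated kinase, the sensor of a low energy state, holds its subunits and the upstream kinase Stk11. Its genes changed in both directions, with 2 higher and 1 lower of 7 tested (42.9%, beside 12.4% of all genes tested). The catalytic subunit Prkaa1 rose from 82.7 to 112 CPM (log2 fold change 0.44, edgeR adjusted p = 0.0217), and the regulatory subunit Prkag2 from 32.4 to 46.2 CPM (log2 fold change 0.51, edgeR adjusted p = 0.048). The other catalytic subunit, Prkaa2, measured 28.3, 30.9 and 28.3 CPM in Control and 14.7, 12.6 and 3.90 CPM in GATA6KO replicates 1 to 3 (log2 fold change -1.49, edgeR adjusted p = 0.0707). DESeq2 and limma-voom called it, as did edgeR without GATA6KO replicate 1 or 3 (0.0428 and 0.0082). Leaving out replicate 1 gave the most calls over all genes. The scaffold subunit Prkab2 fell from 31.3 to 18.9 CPM (log2 fold change -0.73, edgeR adjusted p = 0.0361). Of the 3 called genes, none was called without Control replicate 1, 2 or 3 (edgeR adjusted p from 0.0904 to 0.194), and Prkag2 was also not called without GATA6KO replicate 1 or 2 (0.0503 and 0.0756).

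Over the 77 genes of the 6 lists, 59 were tested, 3 rose and 5 fell. These 8 are 13.6% of those tested, near the 12.4% of all genes. The split was 6 higher and 4 lower with scaling to the library total alone. The count was 2 without any 1 of Control replicates 1, 2 and 3, 22 without GATA6KO replicate 1 and 13 without GATA6KO replicate 3. The number of all called genes, 1823 over all libraries, also fell without each Control library. Among the omissions it was highest without GATA6KO replicate 1, so nothing is read from these shifts.

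**Figure D3:**
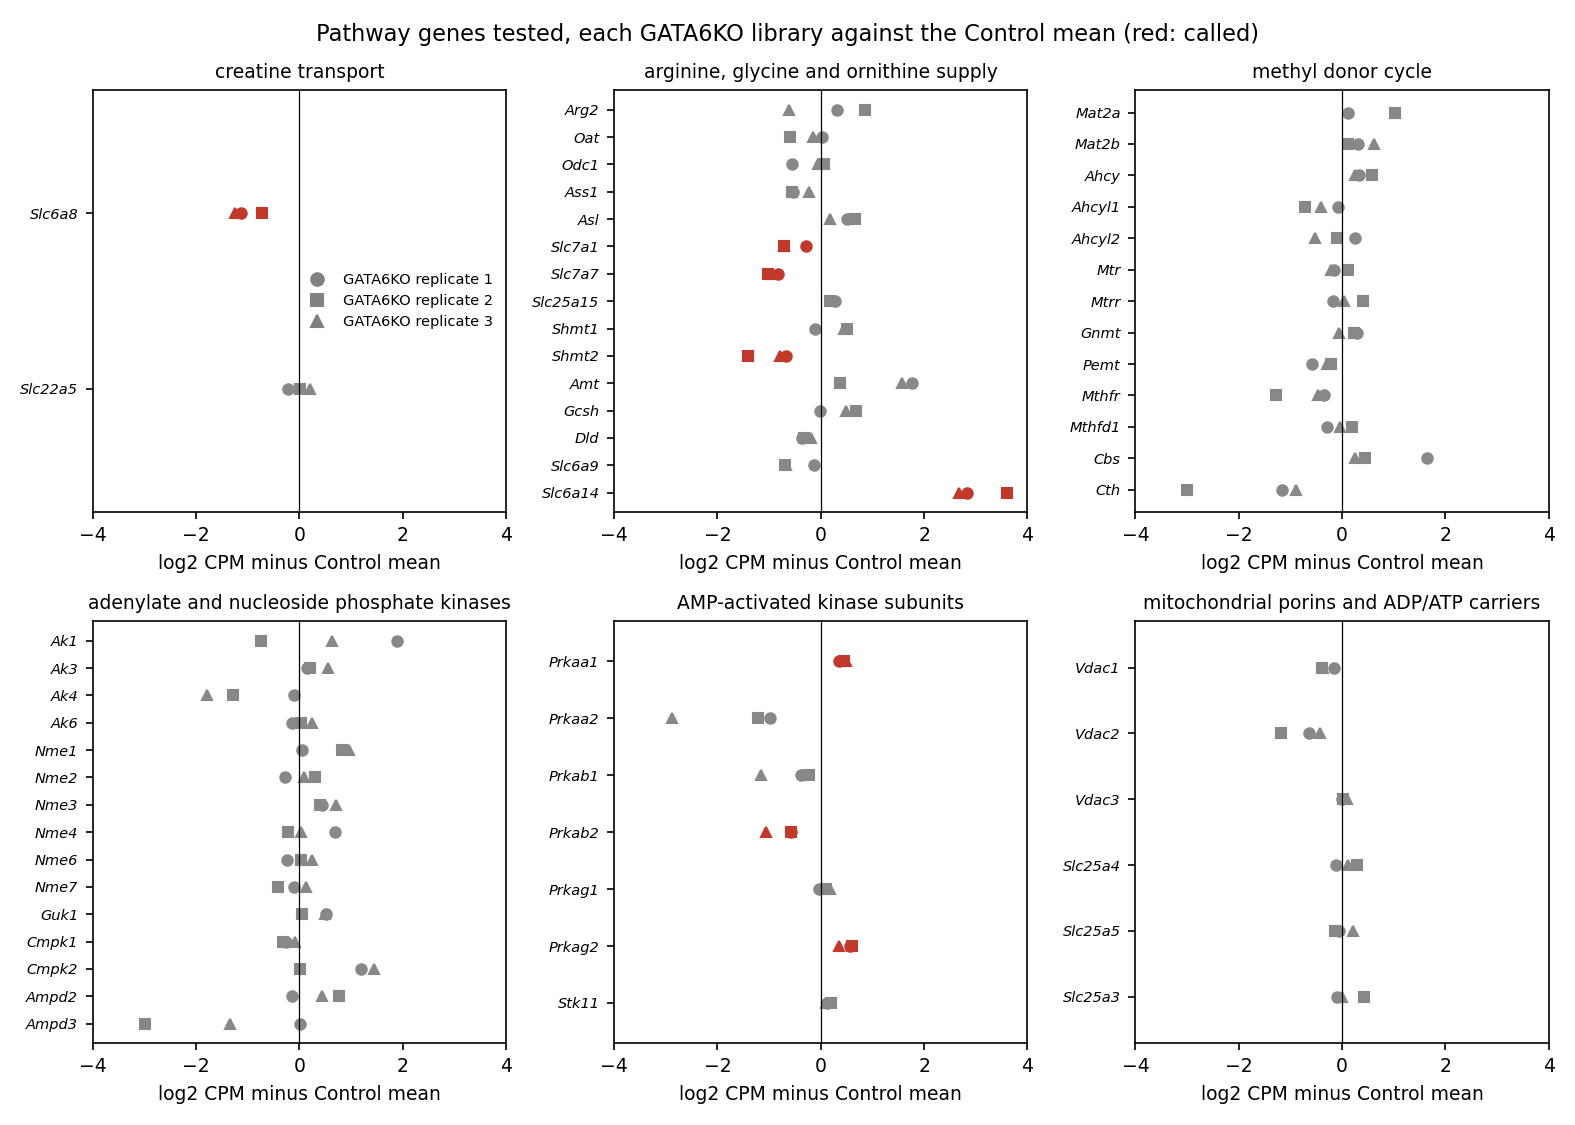
Log2 CPM (prior count 2) of each GATA6KO library minus the Control mean, for all but 1 of the 59 tested genes of the 6 pathway lists, with symbols for the replicate number and red for genes called by edgeR. Slc6a8 lies left of 0 and Slc6a14 right of 0 in all 3 libraries, while the genes of the methyl cycle and the adenylate kinases lie on both sides.

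Creatine kinases are most abundant in muscle and nerve. Most muscle markers were near 0, as were 5 of 10 neural and glial markers. Of 12 skeletal and cardiac muscle markers, 9 had at most 10 counts in any library, Myh4 and Myog were at 0, and the summed level was 32.7 to 45.1 CPM in Control and 11.1 to 32.0 CPM in GATA6KO. The other 3 were the actin Acta1, the troponin Tnnt2 and the myoglobin gene Mb, and they differed in direction. Mb fell from 4.83 to 0.786 CPM (log2 fold change -2.61, edgeR adjusted p = 0.0215) and Acta1 rose from 1.37 to 3.84 CPM (1.48, edgeR adjusted p = 0.0324). Neither was called without Control replicate 1, 2 or 3 (edgeR adjusted p from 0.0692 to 0.154), nor was Acta1 without GATA6KO replicate 3 (0.055). Tnnt2, which gives most of the sum, measured 32.5 and 14.4 CPM (edgeR adjusted p = 0.154), with 26.6 CPM in GATA6KO replicate 2, and it was called without that library (log2 fold change -1.97, edgeR adjusted p = 0.0059). Of 10 neural and glial markers, 5 had at most 10 counts in any library, among them the neuronal Rbfox3 and the astrocytic Gfap, and the summed level was 53.9 to 58.1 CPM in Control and 48.5 to 62.6 CPM in GATA6KO. Most of that sum was Mbp, a gene of myelin, at 47.6 and 40.6 CPM (edgeR adjusted p = 0.164). Map2, a microtubule protein of neurons, rose from 2.42 to 13.8 CPM (log2 fold change 2.52, edgeR adjusted p = 0.00876), a call lost without Control replicate 2 or 3 (0.0524 and 0.0631). The water channel Aqp4 measured 3.95 and 1.89 CPM (edgeR adjusted p = 0.219). Smooth muscle and fibroblast markers (11 genes, Lum at 0) summed to 0.832 to 0.967 CPM in Control and 0.869 to 1.03 CPM in GATA6KO. Immune and endothelial markers (8 genes) summed to 0.438 to 0.624 and 0.635 to 1.05 CPM. The part of the muscle and neural genes in the level of Ckb was not tested.

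No tested gene around Ckb was called over all 6 libraries. Of 10 annotated genes in the table within 100 kb, 6 were tested and 0 were called by edgeR, DESeq2 or limma-voom, with 1 at an unadjusted p under 0.05 by each tool. Since edgeR called 12.4% of all genes tested, nothing is read from 0 of 6. The 1 at an unadjusted p has no share over all genes beside it and is not read either. Trmt61a, a tRNA methyltransferase whose start lies 5767 bases upstream of that of Ckb on the other strand, measured 10.4, 12.1 and 7.10 CPM in Control and 8.43, 23.0 and 15.7 CPM in GATA6KO (log2 fold change 0.67, edgeR adjusted p = 0.268). Apopt1 had the lowest log2 fold change of the 6, at -0.34, and those of Mark3, Klc1, Bag5 and 2810029C07Rik were -0.05, -0.13, 0.06 and 0.11. Without GATA6KO replicate 1, the omission with the most calls over all genes, Apopt1 (log2 fold change -0.42, edgeR adjusted p = 0.0363) and Trmt61a (0.97, 0.0498) were called. Over chromosome 12, the median gene differed from its Control mean by a log2 ratio of -0.04, 0.09 and -0.04 in GATA6KO replicates 1 to 3.

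Of 3 tested genes within 100 kb of Gatm, the zinc transporter Slc30a4 fell by 0.80 on the log2 scale (edgeR adjusted p = 0.0185), a call lost without Control replicate 1, 2 or 3 (0.0739 to 0.0849). It was the 1 gene of the 3 called by edgeR, which called 12.4% of all genes tested. DESeq2, which called more genes than edgeR over the whole table, called 3, and limma-voom 2. Nothing is read from these counts, since only 3 genes were tested. Spata5l1 measured 13.9 and 10.7 CPM (log2 fold change -0.37, edgeR adjusted p = 0.0927), with every GATA6KO library below Control. AA467197 measured 11.0, 11.3 and 14.3 CPM in Control and 3.38, 0.885 and 5.04 CPM in GATA6KO replicates 1 to 3 (log2 fold change -1.98, edgeR adjusted p = 0.0636), and it was called without GATA6KO replicate 2 or 3 (0.0136 and 0.0471). Among the GATA6KO libraries AA467197, like Gatm, was highest in replicate 3, but there it stayed well below the Control libraries. The median log2 ratio over chromosome 2 was -0.0076, 0.07 and 0.04 in GATA6KO replicates 1 to 3.

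**Figure D4:**
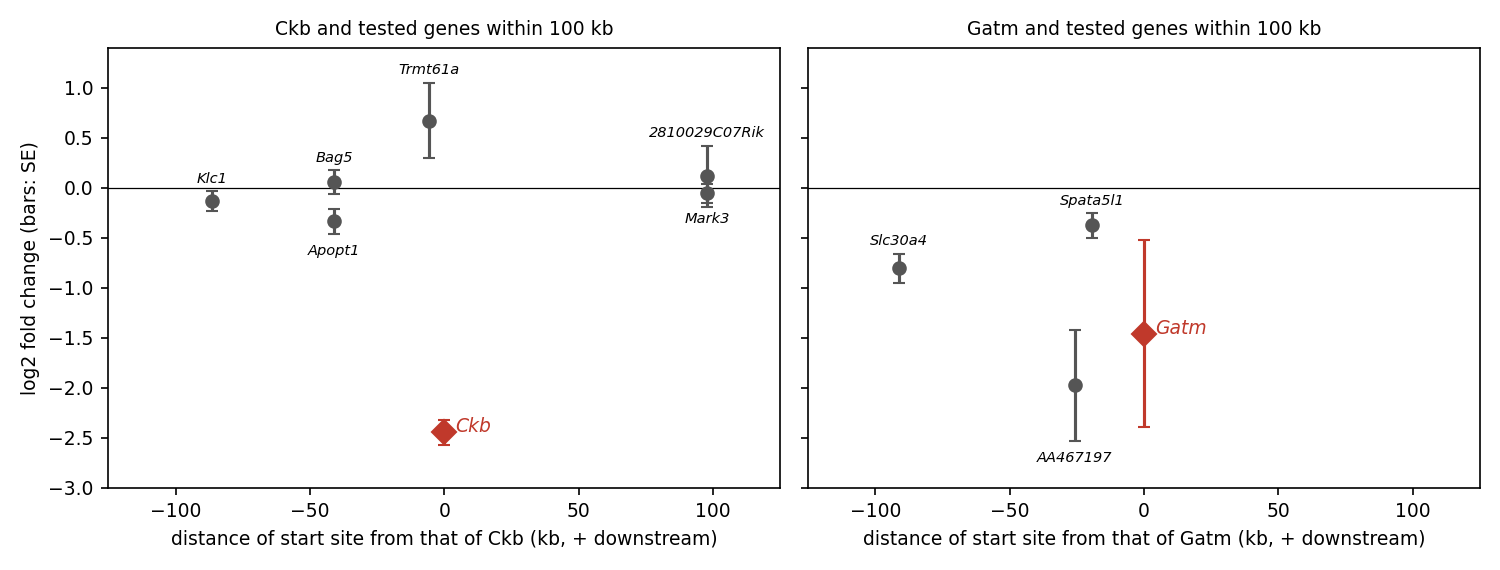
Log2 fold change with SE for Ckb and Gatm (red) and for the tested genes within 100 kb (grey), against the distance between start sites in kb, positive in the direction of transcription of Ckb or Gatm. The neighbours of Ckb lie between -0.34 and 0.67, whereas Ckb lies at -2.44.

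The genes whose profile was nearest to that of Ckb were B4galnt3, Cutal, Ank3, Mapre2 and H2-Q1. Likeness was the root mean square difference between log2 CPM profiles over the 6 libraries, each centred on its Control mean, among 9348 genes with at least 10 CPM in the higher group, and it was 0.216, 0.223, 0.261, 0.291 and 0.329. B4galnt3 is a glycosyltransferase, Ank3 (ankyrin-G) anchors membrane proteins to the cytoskeleton, and Mapre2 binds the growing ends of microtubules. Ank3, on chromosome 10, measured 40.7, 44.2 and 40.5 CPM in Control and 10.6, 6.03 and 6.84 CPM in GATA6KO. H2-Q1 is one of many similar class I histocompatibility genes, so its value is uncertain where counting could split reads.

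For Gatm the same measure was applied after its values had been seen. The nearest gene was Ldb3, at a root mean square difference of 0.220, with 12.8, 11.2 and 11.5 CPM in Control and 1.37, 0.623 and 10.2 CPM in GATA6KO replicates 1 to 3. Ldb3 encodes a protein of muscle Z-discs and lies on chromosome 14. The next were Mical1, the brush border enzyme Mgam, the zinc importer Slc39a4 and Baiap2l2, at 0.665 to 0.691. Mical1 was near its Control level in GATA6KO replicate 3 (10.1 CPM, against a mean of 12.5 CPM in Control), though below every Control library. Mgam, Slc39a4 and Baiap2l2 were higher there than in replicates 1 and 2 but stayed further below Control.

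**Figure D5:**
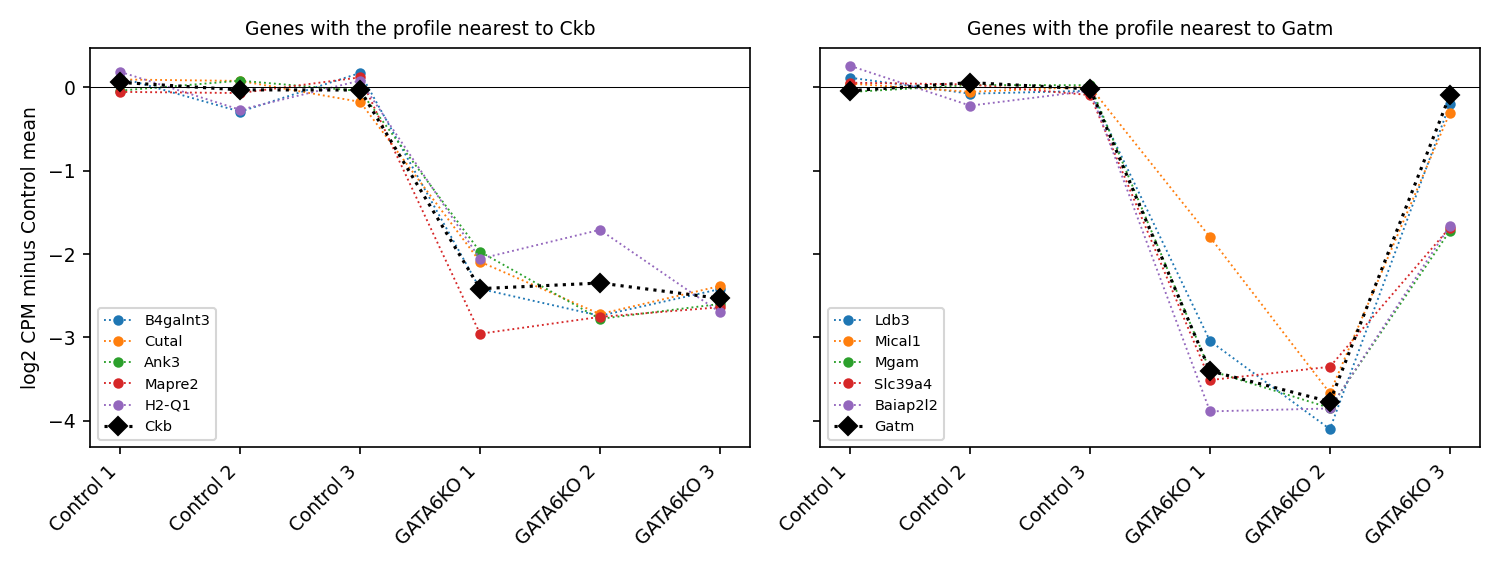
Log2 CPM (prior count 2) minus the Control mean in each of the 6 libraries for Ckb (left) and Gatm (right) in black and their 5 nearest genes in colour; dotted lines join the points of a gene and carry no order. The genes near Ckb are low in all 3 GATA6KO libraries, and Ldb3 and Mical1 return with Gatm towards 0 in GATA6KO replicate 3. All were picked for nearness over these same libraries, so their likeness is no separate result.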

How the data were processed

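Poly(A)-selected RNA was sequenced as strand-marking libraries, per the labels' protocols. The authors deposited estimated counts per gene in whole numbers, not scaled between libraries. Salmon 1.3.0 and mm10 appear in the submitters' processing notes with no role stated. Which annotation release was used, and how counts were rounded, is not given in the sources used here. Salmon divides reads that fit several transcripts, so values of similar genes depend on that division.

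Symbols, coordinates and exon lengths came from GENCODE M21 (54096 of 54418 identifiers matched). Genes were kept by edgeR's filterByExpr (at least 10 counts at the median library size in 3 libraries and 15 in total), scaled by TMM and tested by the quasi-likelihood test with robust estimation and no block. The p-values were adjusted by Benjamini-Hochberg over 14714 genes, with a threshold of 0.05. SEs were derived from the log2 fold change and the F statistic. The scripts were tested on simulated counts. Versions were edgeR 4.0.16, DESeq2 1.42.0 and limma 3.58.1 under R 4.3.3.

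The members, the 6 pathway lists and 5 marker lists were chosen with earlier results of these data known. Named were all members, Gata6, Slc6a8, up to 4 called genes per list that reached 1 CPM in either group (the 2 most abundant tested genes if no gene was called), the tested neighbours of Ckb and its 5 nearest profiles. A result that this rule would give is not reported here. Prkaa2, the neighbours of Gatm, the genes nearest to it, and the markers given by name were chosen after their values were seen. Alternatives were other scalings, filters and tools, the replicate block, and the omission of single libraries.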

Additional observations from a re-analysis of the deposited data

How the results depend on the processing

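The log2 fold change of Ckb stayed between -2.49 and -2.37 over the 13 alternatives, and that of Ckmt1 between -1.24 and -0.68. That of Gatm ran from -3.67 to -0.96 when 1 library was left out, the lowest without GATA6KO replicate 3. It was -2.48 with limma-voom. All called genes numbered 1823 (1018 higher, 805 lower). With DESeq2 there were 3238 (1709 and 1529). When 1 library was left out there were 332 to 4360 (202 to 2235 higher, 130 to 2125 lower), the most without GATA6KO replicate 1. Pathway genes called numbered 8. With DESeq2 there were 23 (9 higher, 14 lower), with no filter 13 (6 higher), with scaling to the library total 6 higher, and when 1 library was left out 2 to 22 (1 to 10 higher, 1 to 12 lower). The causes were not tested.

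The labels number the replicates without saying whether equal numbers pair the samples. Deviations of same-numbered libraries correlated at -0.01, 0.07 and -0.09, so not every library correlated best with its own number. With 3 libraries per group, these values cannot settle whether same-numbered libraries shared a batch. With the replicate block, 827 genes were called (480 higher, 347 lower), of them 4 pathway genes (1 higher, 3 lower). Slc7a1, Prkaa1, Prkab2 and Prkag2 were not among them, nor were Mb and Acta1 called.

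Differences near 0 changed sign when 1 library was left out for Slc25a5 (-0.094 to 0.089), Slc25a3 (-0.049 to 0.22), Bag5 (-0.036 to 0.14) and Mark3 (-0.13 to 0.0011), and Mark3 also with the library total alone (0.021). Tubb3 did so too (-0.43 to 0.31). Ckm, Ckmt2 and Gamt did not pass the filter on low counts, so no test of them is given.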
